A study of Mus musculus with 39 samples.

Results

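The cytosolic ribosomal protein genes are the genes for the protein components of the ribosome that translates messenger RNA in the cytosol. They were taken by symbol from the protein-coding genes of the GENCODE annotation of mm10 on chromosomes 1 to 19, as Rpl or Rps with a number and at most 1 further letter, together with Rplp0, Rplp1, Rplp2 and Rpsa. Symbols with an l or ps after the number and the S6 kinase genes were left out. This gave 72 genes of the 20807 protein-coding genes on these chromosomes, 43 for the large and 29 for the small subunit. Genes for ribosomal proteins that carry other symbols fall outside this choice.

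A ribosome is built from ribosomal RNA and a near-equal supply of each ribosomal protein, so the protein genes are transcribed strongly in growing cells. Although their products act in one particle, the genes are scattered over the chromosomes. Introns of many of them hold small nucleolar RNA (snoRNA) genes, whose RNAs guide the modification of ribosomal RNA.

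All data came from R1 cells, a wild-type line of mouse embryonic stem (ES) cells grown with leukemia inhibitory factor and without further treatment in the libraries used here. For nucleosome wrapping, crosslinked chromatin was digested with MNase and precipitated with an antibody against histone H3, and 4 libraries were sequenced. For replication timing (RT), BrdU-labelled DNA of cells sorted into the 4 fractions S1 to S4 of S phase was sequenced in 8 libraries. From these the authors made 2 lists of domains, and the libraries of the other experiments were not analysed here. On all chromosomes the NRD list used here held 1243 domains and the RT list 1811. The NRD list is shorter than the one the study describes, and what sets them apart was not analysed here.

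In the first list each nucleosome wrapping domain (NRD) has a score on the scale of the wrapping index, which compares longer with shorter DNA fragments on nucleosomes. Domains above 0 are tight (TiNRDs) and those below 0 are loose (LoNRDs). In the second list each RT domain has a log2 ratio of early to late fractions, above 0 for early and below 0 for late replication. A gene was given the domain that holds its midpoint, and genes between domains had no call. Each list is 1 call that names no replicate, so no spread between replicates was computed. Values of separate replicates were not analysed here, and the depth behind each domain is unknown. Members in 1 domain share its value and are not replicates.

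Nearly every cytosolic ribosomal protein gene lay in tightly wrapped, early replicating chromatin. Of the 72 genes 68 (94.4%) were in TiNRDs, against 78.6% of all protein-coding genes. LoNRDs held 3 members (4.17%), against 20.3% of all genes, and 1 member (1.39%) had no NRD, against 1.09%.

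In the RT list 71 of the 72 genes (98.6%) were in early domains, against 75.3% of all genes. No member had a late call, while 21.4% of all genes did. Rps23 was the 1 member (1.39%) without an RT domain, against 3.26% of all genes. Both calls together put 67 members (93.1%) in the class TiNRD and early, against 69.4% of all genes. The class LoNRD and early held 3 members (4.17%), against 5.33% of all genes, which is near the background. No member was in the class TiNRD and late, with 7.49% of all genes, or LoNRD and late, with 13.5%. TiNRDs made up 51.1% of the length of these chromosomes and early domains 45.5%.

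**Figure D1:**
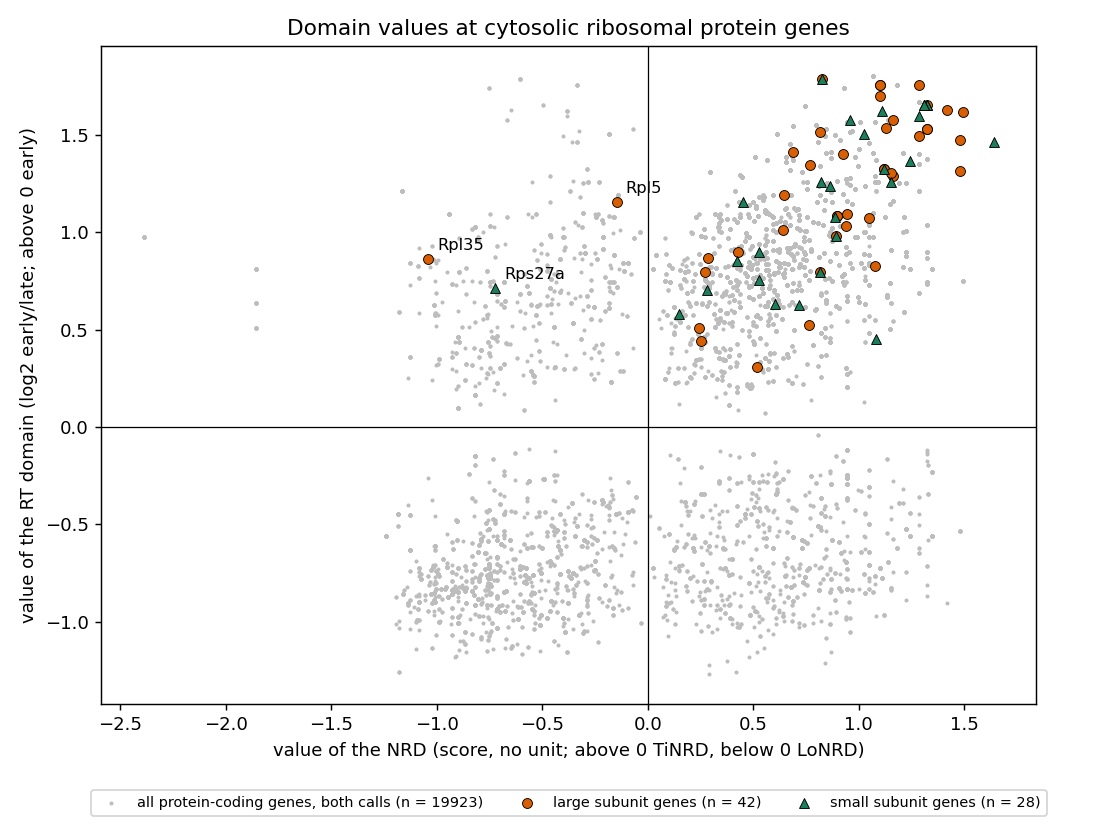
Score of the NRD (horizontal, no unit) and log2 value of the RT domain (vertical) at the midpoint of each gene with both calls, with large subunit genes as circles, small subunit genes as triangles and all protein-coding genes in grey. All 70 members drawn lie above 0 on the vertical axis, and Rpl5, Rpl35 and Rps27a lie below 0 on the horizontal axis.

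The members also stood somewhat higher on both scales than the median gene, with wide spread. Their median NRD score was 0.926 (quartiles 0.643 and 1.16, 71 genes in 56 NRDs), and that of all genes was 0.757 (quartiles 0.296 and 1.05). Their median RT value was 1.26 on the log2 scale (quartiles 0.87 and 1.53, 71 genes in 59 RT domains), and that of all genes was 0.98 (quartiles 0.37 and 1.39). In each list 50 of the 71 members with a call lay above the median gene. Below the lower quartile of all genes lay 10 members for NRD score and 1 for RT value. The 25% of TiNRDs with the highest scores held 51 members (70.8%), against 53.3% of all genes. The 25% of early domains with the highest RT values held 50 members (69.4%), against 50.5% of all genes.

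Large and small subunit genes had similar calls. TiNRDs held 40 of 43 large subunit genes (93.0%) and 28 of 29 small subunit genes (96.6%). Early domains held all 43 large subunit genes and 28 of the 29 small subunit genes. The median NRD score was 0.942 for the large and 0.888 for the small subunit, and the median RT value was 1.30 and 1.25 on the log2 scale. These gaps are small beside the spread between genes within either subunit.

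Among large subunit genes, Rplp0, Rplp1 and Rplp2 encode the stalk that recruits translation factors. All 3 were tight and early, in 3 different NRDs with scores of 1.16, 0.896 and 1.05. Of all members 93.1% and of all genes 69.4% were tight and early, so these 3 genes do not stand out. Rpl5 and Rpl11 encode the proteins that bind 5S ribosomal RNA, and they differed in their NRD call. Rpl11 lay in a TiNRD of score 1.29 and an RT domain of log2 value 1.76, while Rpl5 lay in a LoNRD of score -0.148 and an RT domain of log2 value 1.16. The midpoint of Rpl5 was 4.75 kb from the end of that LoNRD. With bins of 100 kb, this difference in call is within the resolution of the list.

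Of the 7 genes for proteins at the exit tunnel of the nascent chain and its rim (Rpl4, Rpl17, Rpl19, Rpl23a, Rpl26, Rpl31 and Rpl35), 6 (85.7%) were in TiNRDs and all 7 in early domains, against 78.6% and 75.3% of all genes. Rpl19 had the highest RT value of these, 1.76 on the log2 scale, and Rpl31 the lowest, 0.53, although the NRD of Rpl31 scored 0.766. Rpl35 was the member of this group in a LoNRD, with its midpoint 3.60 kb from the end of that LoNRD.

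Among small subunit genes, Rps2 and Rps3 encode proteins at the entry of the messenger RNA channel, and both were tight and early, with NRD scores of 1.32 and 0.888. At the exit of the channel, Rps14, Rps26 and Rps28 were all tight and early, with RT values of 1.26, 1.79 and 1.65 on the log2 scale. With 93.1% of all members and 69.4% of all genes tight and early, groups this small do not stand out. Rps15 and Rps23 encode proteins near the decoding centre and had very different NRD scores. Rps15 had the highest NRD score of all members, 1.64, and Rps23 the lowest score above 0, 0.104. Rps6, the substrate of the S6 kinases, lay in a TiNRD of score 0.282 and an early domain of log2 value 0.70. Rps27a, made as a fusion with ubiquitin, lay in a LoNRD.

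The 19 members whose human counterparts are known from Diamond-Blackfan anaemia, an inherited failure of red cell production, were all in early domains, and 17 of them (89.5%) were in TiNRDs, against 75.3% and 78.6% of all genes. The other members of this list were Rpl5 and Rpl35, both within 100 kb of an NRD end. Its median NRD score was 0.827 and its median RT value 1.32 on the log2 scale, against 0.926 and 1.26 over all members.

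The highest NRD scores after Rps15 were those of Rpl38 (1.49), of Rpl7a and Rpl12, which share an NRD (1.48), and of Rpl36 (1.42). The highest RT values were those of Rpl41 and Rps26 (1.79), of Rpl23 and Rpl19 (1.76), each pair in 1 domain, and of Rpl11 (1.76). The lowest RT values were 0.31 for Rpl34, 0.44 for Rpl15, 0.45 for Rps24, 0.51 for Rpl7 and 0.53 for Rpl31, all above 0. For Rps24 the lists stood apart, since its NRD scored 1.08. Over the 70 members with both calls the values went together across genes, with Pearson's r of 0.623 and Spearman's rho of 0.704. Across all 19923 genes with both calls r was 0.707 and rho 0.718. These describe genes that share domains, base composition and cells, and are not tests.

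Only 5 members fell outside the class TiNRD and early. Of these, 4 lay within 100 kb of an NRD end or in a gap between NRDs. The limit of 100 kb is the width of 1 bin of the NRD list. Of all genes, 8.06% lay within 100 kb of an end of their NRD and 1.09% had no NRD. The share among all genes outside the class was not computed. Rpl35 (chr2:39001580-39005624, mm10, minus strand) had its midpoint 3.60 kb inside a LoNRD of 10400 kb and score -1.04. The TiNRD that ends beside it scored 0.737. Its RT domain was early, 0.86 on the log2 scale, and ran 346 kb past the midpoint before a late domain began. As called, the wrapping border and the timing border around Rpl35 lay on different sides of the gene. The wrapping border was only 3.60 kb from the midpoint and NRD ends lie on a grid of 100 kb, so its side is not resolved.

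Rpl5 (chr5:107900502-107909005, plus strand) lay 4.75 kb inside a LoNRD of 400 kb that had TiNRDs on both sides, with scores of 0.499 and 0.801. The early domain around Rpl5 was 1400 kb long and extended over the whole of that LoNRD. Rps23 (chr13:90922958-90924950, plus strand) lay 24.0 kb inside a TiNRD of 500 kb with 2 protein-coding genes, beside a LoNRD of 12600 kb and score -0.907. It had no RT domain, and the nearest RT domains on both sides were late, with log2 values of -0.38 and -0.15. Rpl37 (chr15:5116645-5119140, plus strand) lay in a gap between LoNRDs of scores -0.515 and -0.480, in an early domain of 500 kb and log2 value 0.62 with late domains on both sides.

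Rps27a (chr11:29545846-29548109, minus strand) was the exception farthest from an NRD end, 253 kb inside a LoNRD of 5300 kb and score -0.723. Its early domain was 2250 kb long with a log2 value of 0.71. The 100 kb around Rps27a had 60.5% A/T, the highest share of all members.

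**Figure D2:**
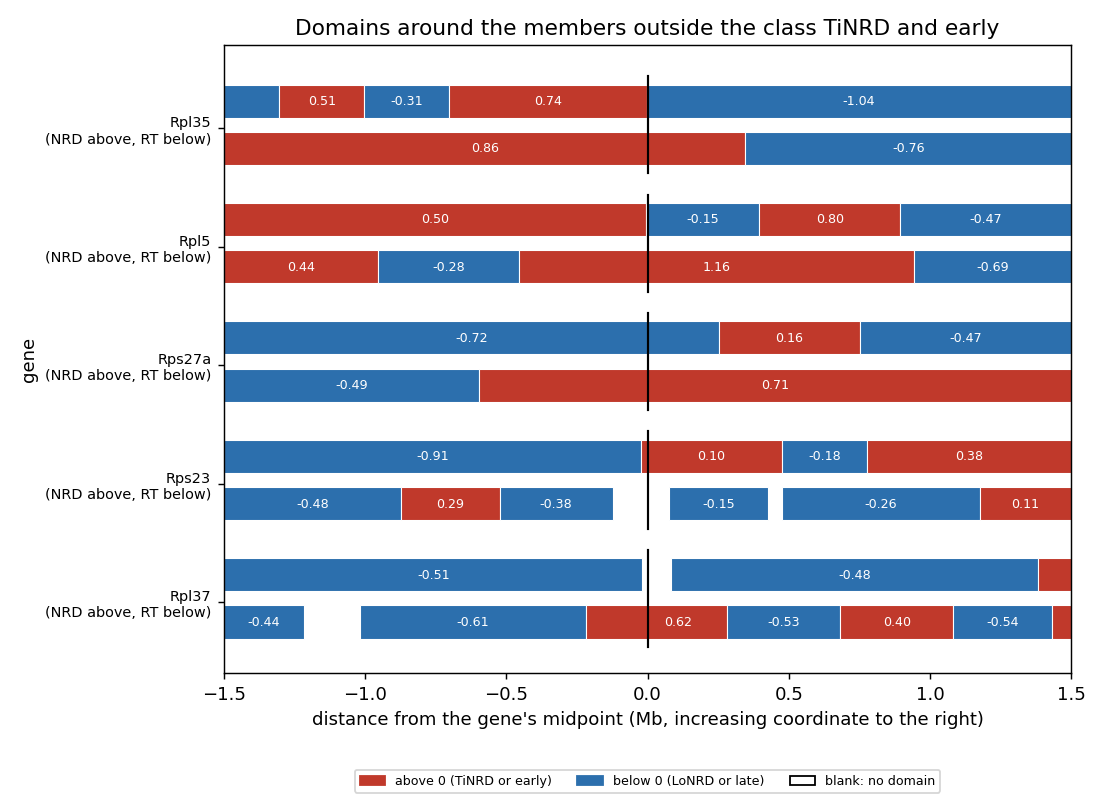
NRDs (upper bar) and RT domains (lower bar) within 1.5 Mb of the midpoint of each of the 5 members outside the class TiNRD and early, with red above 0, blue below 0 and the domain value written in each longer bar. The black line at the gene falls close to an NRD end for Rpl35, Rpl5 and Rps23, and in a gap of the upper bar for Rpl37.

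To show what lies at the RefSeq starts of these genes, the 20 bases before and the 10 bases from the start on are given 5′ to 3′ on the gene's strand from RefSeq promoters of GRCm38. These starts differ from the gene ends in the GENCODE coordinates given above. Capitals mark the unbroken run of C or T that holds the start base, or the start base alone where it is A or G. Ribosomal protein messenger RNAs are known for a tract of C and T at their 5′ end. Rpl35 (chr2:39005122-39005151, minus strand) had a run of 18 bases, of which 17 lie in the window, and in the other 3 the annotated start base was not C or T. The Rpl5 window opens with a stretch of C and T bases upstream of that start. The starts are annotated and were not measured here, so the windows do not show whether these genes lack such a tract. Rpl5 is at chr5:107900508-107900537, Rps23 at chr13:90923102-90923131 and Rpl37 at chr15:5116593-5116622, all on the plus strand. Rps27a had no entry.
Rpl35: gaagtcggccccgCCCTTTCCTCTTTCTCT
Rpl5: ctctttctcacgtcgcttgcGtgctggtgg
Rps23: acggggccttcggctgggcgGggcttcccg
Rpl37: gaagtagtttcctgggcggaAgcttatcca
Promoter entries matched 52 of the 72 members (72.2%), under the 80% set as the minimum for a property of the whole set. The check of C and T runs and promoter motifs over all members is therefore void, and no such counts are given.

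A second set of members sat in small tight islands. TiNRDs shorter than 1 Mb, a limit chosen after the values were seen, held 9 members (12.5%), against 6.68% of all genes. They lay in 9 different NRDs, and Rpl7, Rps20, Rps6, Rps12, Rps23, Rpl15, Rpl30 and Rpl24 were among them. In 7 of the 9 cases a LoNRD came next on both sides. In the other 2 cases, Rpl7 and Rps20, a LoNRD came next on 1 side. The matching share over all genes in such TiNRDs was not computed. LoNRDs also came next on both sides of longer TiNRDs, such as those of Rps15, Rpl36 and Rps14. Such neighbours are thus not particular to the short TiNRDs.

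Rpl24, a large subunit gene, lay in a TiNRD of 500 kb and score 0.272 with 8 protein-coding genes, between LoNRDs of scores -0.882 and -0.317. Its early domain, 0.79 on the log2 scale, was 550 kb long and began at the same coordinate, 55700001 on chromosome 16. For Rpl24 the tight island and the early island thus nearly coincided.

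Rpl15 lay in a TiNRD of 900 kb and score 0.251, and its early domain of 400 kb lay inside it. Rps12, which hosts 3 snoRNA genes, showed the opposite order, with a TiNRD of 700 kb and an early domain of 2400 kb. Rps20 lay 66.5 kb from the end of its TiNRD, and Rpl35, Rpl5 and Rps23 also lay within 100 kb of an end of the NRD that holds them. That made 4 members (5.56%), against 8.06% of all genes. Rpl37, which no NRD holds, is not in this count.

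**Figure D3:**
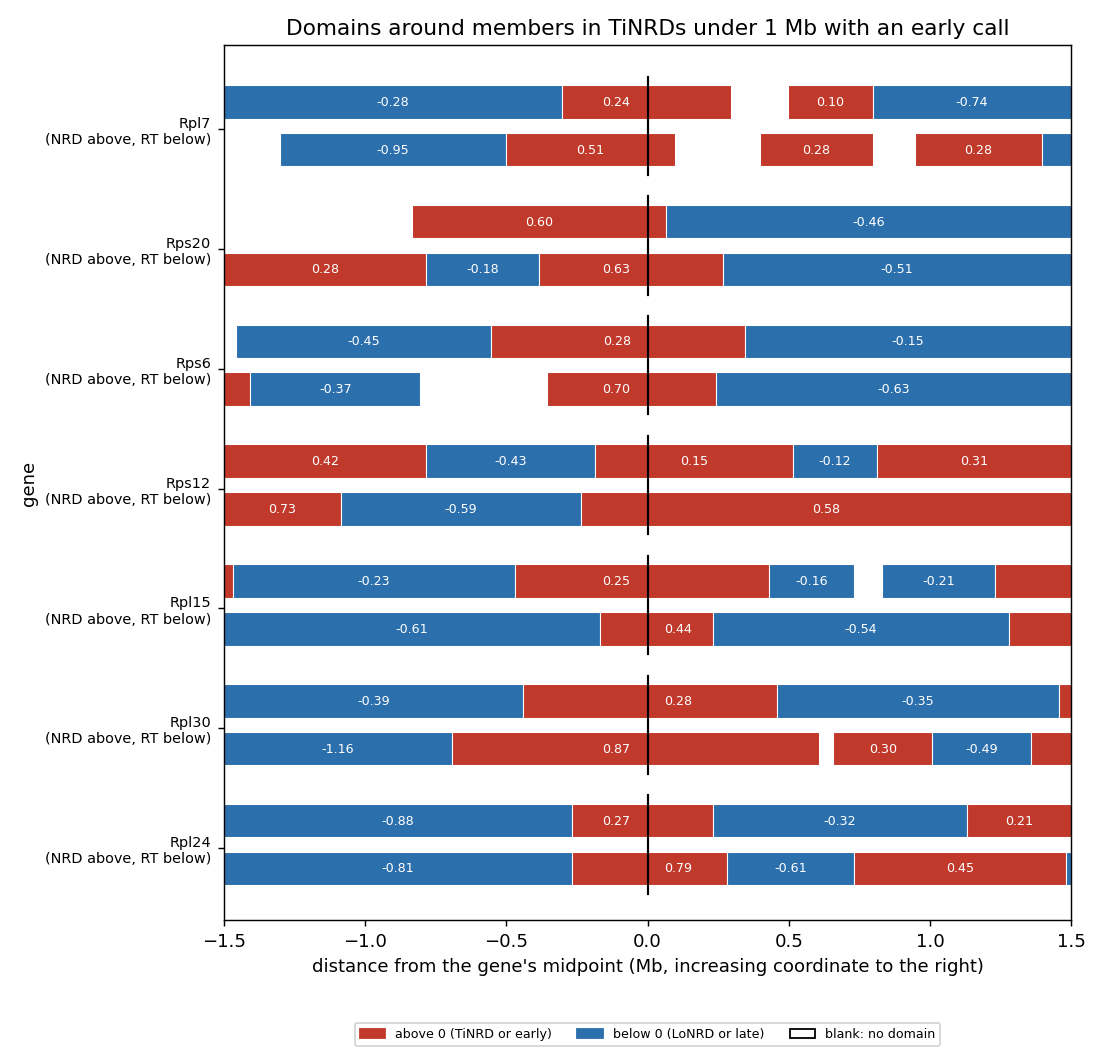
NRDs (upper bar) and RT domains (lower bar) within 1.5 Mb of the midpoint of 7 members that lie in TiNRDs under 1 Mb and have an early call, with red above 0, blue below 0 and blank where no domain is listed. Each gene, drawn as a black line, lies in a red stretch of both bars.

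Early RT domains shorter than 1 Mb held 10 members (13.9%), against 12.2% of all genes, which is near the background. No member lay within 50 kb of an end of its RT domain, the width of 1 window, against 4.73% of all genes. The median distance to the nearer end was 1.32 Mb for NRDs and 0.956 Mb for RT domains, against 0.915 Mb and 0.520 Mb over all genes. Most members thus lay well inside their domains.

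Several members shared a domain and so a value. The RT domain at chr17:23300001-36350000 (mm10) held 5 members, Rps2, Rps10, Rpl10a, Rps28 and Rps18, and 431 protein-coding genes. The same members fell into 2 NRDs of scores 1.32 and 1.31. Rpl13a and Rpl18 on chromosome 7 lay 587 kb apart and shared both domains. Rpl41 and Rps26 lay 75.2 kb apart on chromosome 10 and Rpl23 and Rpl19 lay 244 kb apart on chromosome 11. Rps28 and Rps18, Rpsa and Rpl14, and Rps10 and Rpl10a were further neighbours within 1 Mb, and each of these pairs shared both domains. Chromosome 7, with 2023 protein-coding genes, held 14 members, all tight and early, where 79.2% of its genes were tight and 70.7% early. Chromosome 19, with 719 genes, held 0 members.

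The members were short genes in gene-rich surroundings of lower A/T content. Their median length was 3.33 kb, against 17.6 kb over all genes. A median of 20 protein-coding genes lay within 500 kb of a member, against 16. The 100 kb around a member had a median of 53.0% A/T, against 55.5%. The 9 members in TiNRDs under 1 Mb went the other way in both, with medians of 8 genes within 500 kb and 56.8% A/T. Within 27 members (37.5%) the annotation held at least 1 snoRNA gene on the same strand, 54 such genes in all, against 1.17% of all genes. Rpl4 held 5 and Rpl13a held 4.

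How the members compare with all genes depended on which of these features was matched. When all genes were weighted to the members' distribution over 5 classes of gene number nearby, 79.8% were in TiNRDs, 76.9% in early domains and 71.6% in both. These stay well below the members' 94.4%, 98.6% and 93.1%. With 5 classes of A/T content in place of gene number, a choice made after the values were seen, the weighted shares of all genes were 95.5%, 91.0% and 89.0%. With this weighting the share in TiNRDs was no higher for the members than for all genes, and the share in early domains was higher by a smaller margin. Of the 72 members 49 were in the 2 classes of lowest A/T content, in which 99.9% and 99.3% of all genes were in TiNRDs. Class 3, with 13 members, had 98.6% of all genes in TiNRDs. In these 3 classes the members' share could hardly have been higher. Class 4 held 9 members, of which 8 were tight, 8 early and 7 both. The shares of all genes in class 4 were 77.3%, 64.0% and 53.4%. In the class of highest A/T content, with 18.0% of all genes in TiNRDs, there was 1 member, Rps27a. The part of A/T content in the members' calls was not tested.

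Other gene lists with general cell functions, chosen by symbol, had shares like those of the cytosolic ribosomal protein genes. TiNRDs held 74 of 78 mitochondrial ribosomal protein genes (94.9%), 62 of 65 translation factor genes (95.4%) and 36 of 38 proteasome genes (94.7%). The class TiNRD and early held 87.2%, 93.8% and 92.1% of them, against 93.1% of the members. The NRD medians of these lists, 0.848, 0.823 and 0.746, lay below the members' 0.926. Their RT medians were 1.16, 1.24 and 1.31 on the log2 scale, against 1.26, so that of the proteasome genes lay above the members'. Late domains held 21.4% of all genes. They held 8 mitochondrial ribosomal protein genes (10.3%), 3 translation factor genes (4.62%) and 3 proteasome genes (7.89%), and 0 members. The differences between these lists and the members are few genes each and were not tested.

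Relatives outside the choice gave mixed calls. Of 7 genes with an l after the number, 6 were tight and early, and Rpl10l was loose and late, with an NRD score of -1.01 and an RT value of -0.81 on the log2 scale. Rps3a1, a gene for a small subunit protein, was early but lay in a LoNRD of score -0.670. Of 6 protein-coding genes with ps in the symbol, 3 were tight and early, 2 tight and late and 1 loose and early. With 69.4% of all genes tight and early, lists of 7 and 6 genes do not stand out. The 4 genes on chromosome X, Rpl10, Rpl36a, Rpl39 and Rps4x, were all tight and early. The shares of all genes given here leave out chromosome X, so these 4 genes have no background to be set against. Among 266 annotated pseudogenes with ribosomal protein symbols, 73.7% were in TiNRDs, 71.1% in early domains and 64.3% in both. The pseudogenes, copies placed elsewhere in the genome, were thus nearer to all genes than to the members.

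**Figure D4:**
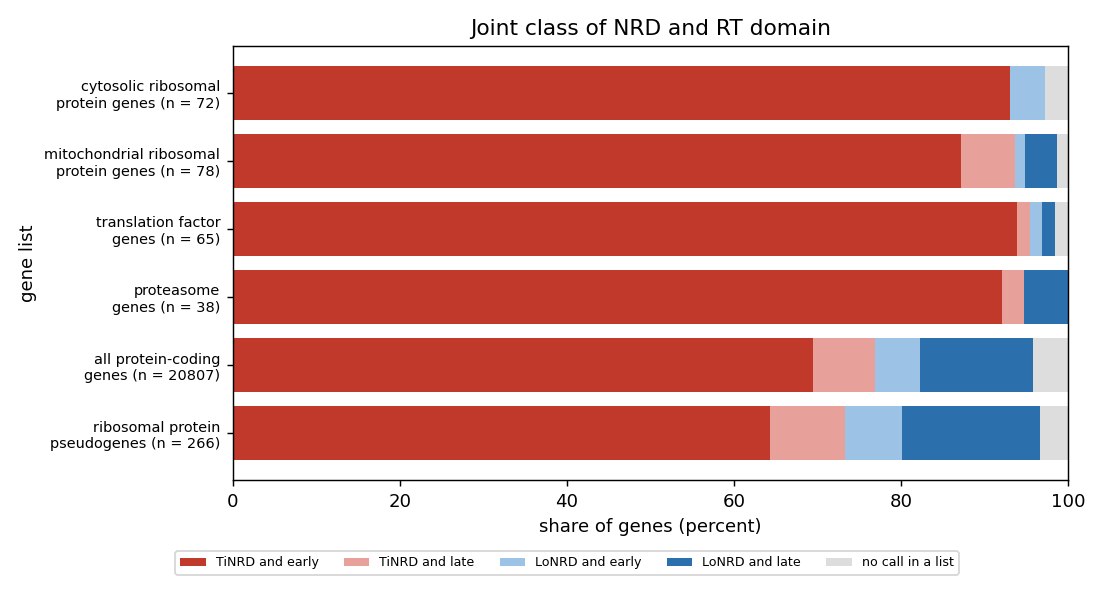
Share of genes (percent, horizontal) in each joint class of NRD and RT domain for 6 gene lists (vertical), with genes lacking a call in either list in light grey. The class TiNRD and early takes 93.1% of the cytosolic ribosomal protein genes, 69.4% of all protein-coding genes and 64.3% of the pseudogenes.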

How the data were processed

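The authors trimmed reads with cutadapt 4.3, aligned them to mm10 with Bowtie2 2.5.1 and removed duplicates with Picard and samtools. For NRDs they counted H3 fragments by length in 100 kb bins with bedtools 2.30.0, and the deposited score of each domain is on the scale of the resulting z-score, smoothed before domains were called with homer2. The deposited log2 value of each RT domain comes from early over late fractions in 50 kb windows after quantile normalization. How replicates were combined, and how a domain's value was made from its bins, is not given in the sources used here. Genes of GENCODE were assigned by midpoint with Python 3.11.15, numpy 2.4.6 and scipy 1.17.1, tested on simulated domains and checked against bedtools 2.31.1, with 0 genes differing. Sequence was read with samtools 1.23.1 and pysam 0.24.0, and figures were drawn with matplotlib 3.10.9. The RT list reached exactly the GRCm38 length of 20 out of 21 chromosomes. Genes named are those outside the class TiNRD and early, the 5 highest and 5 lowest per list, those within 100 kb of an NRD end, members within 1 Mb of each other, and role lists; members of TiNRDs under 1 Mb and snoRNA hosts were added after their values were seen. Some genes are counted but not reported by name here. The members and lists were chosen with earlier results of these data known. No tests were made, since each list is 1 call and genes are not replicates. Alternatives were another gene position, longer domains, members away from domain ends, 1 member per domain, called members only, each autosome left out, and RefSeq extents.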

Additional observations from a re-analysis of the deposited data

How the results depend on the processing

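Of 43 alternative values for the 3 shares and 2 medians, 40 lay within the 95% binomial interval of the main value. This interval is wide and treats genes as independent, and the alternatives reuse most members, so it serves as a yardstick and is no test of stability. The share in TiNRDs ranged from 93.0% to 97.1%, the share in both from 91.4% to 97.1%, the median NRD score from 0.89 to 0.96 and the median RT value from 1.19 to 1.30 on the log2 scale. The share in early domains ranged from 97.2% to 100%. It moved to 100% with members away from domain ends and with called members only, which leave out Rps23, the member without an RT domain. With each autosome left out it ranged from 98.3% to 100%, the latter without chromosome 13, which holds Rps23. RefSeq extents, chosen after seeing the data, gave the main values. No paired analysis was made, because the results come from no test and the 2 lists used carry no replicate numbers. The depth behind a domain is unknown, and NRD ends lie on a grid of 100 kb and RT domain ends on one of 50 kb, which limits the calls of members near an end.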
